A study of Drosophila melanogaster with 88 samples.

Results

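Heads of male flies labelled VAPP58SRepo, which carry a disease form of the protein VAP together with the glial driver repo-GAL4, were set against heads of males labelled VAPP58S, which carry the disease form with no driver named. Libraries were chosen by their labels alone: 8 VAPP58SRepo and 8 VAPP58S libraries, in each set 4 from flies aged 5 days and 4 from flies aged 15 days, so 16 of the 88 libraries in the series. All 16 are whole heads and all carry P58S. The labels name no transgene under the driver in VAPP58SRepo, and they do not give the promoter behind VAP P58S, the age range of a collection or the number of heads pooled. In library numbering, the VAPP58SRepo libraries stand with those of flies that carry transgenes of the transcription factor kay. The VAPP58S libraries stand beside those of VAPWT flies. The labels name no batch, so a difference of sequencing batch is inferred from this numbering alone. Driver, stock background and sequencing batch therefore differ together between the sets, and their parts in any difference below cannot be told apart. No batch inferred in this way holds both genotypes.

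VAP is an endoplasmic reticulum protein that tethers this membrane to other organelles through lipid transfer proteins, and P58S corresponds to the substitution in human VAPB that is inherited in some families with ALS. GAL4 drivers are yeast activators placed under a fly promoter. They turn on only genes behind a UAS sequence, and repo-GAL4 is active in nearly all glia because repo encodes the homeodomain factor of lateral glia. Many GAL4 and UAS transgenes are marked with a small copy of white, the gene for an eye pigment transporter, so flies with more transgenes often have more white RNA. Fly stocks kept apart also differ in genes for detoxifying enzymes, odorant-binding proteins and immune peptides, which are among the more variable genes between laboratory lines.

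Values are raw reads per gene from a 3′ end method, in which a gene gives reads near its 3′ end whatever its length, and levels below are CPM, a gene's reads scaled to a common total of gene reads. VAPP58SRepo libraries held 1.61 to 7.06 M gene reads at day 5 and 4.21 to 8.36 M at day 15. VAPP58S libraries held 3.13 to 16.5 M at day 5 and 3.58 to 11.3 M at day 15. After thinning every library to 1205951 reads, VAPP58SRepo libraries detected 8725 to 9820 genes at day 5 and 9682 to 9883 at day 15, while VAPP58S libraries detected 9788 to 10072 at day 5 and 10057 to 10121 at day 15. Replicate 3 of VAPP58SRepo at day 5 was the shallowest and detected the fewest genes. Replicate 3 of VAPP58S at day 5 had 6.24% of its reads on mitochondrially encoded genes, a share far below that of its 3 companions. Neither library was left out of the fits. Counts of list members with a library left out are given beside some lists only, and further lists also moved.

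The genes behind the labels came first. Vap33, the fly VAP gene, averaged 744 ± 50.2 CPM in VAPP58SRepo and 788 ± 50.4 CPM in VAPP58S (SD, n = 8 each), a log2 difference of -0.07 (SE 0.07) that did not pass the test. kay, the fly Fos, stood at 245 ± 42.8 CPM in VAPP58SRepo and 280 ± 40.1 CPM in VAPP58S (SD, n = 8 each; edgeR adjusted p = 0.142). Neither Jra, the fly Jun (log2 fold change 0.12, SE 0.21), nor repo itself (0.41, SE 0.17) passed. A GAL4 gene is not among the features used here, so the driver itself could not be followed. The labels do not say whether this driver carries a white marker.

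white, the gene that marks many transgenes, was higher in every VAPP58SRepo library. It had 24.4, 8.21, 16.8 and 5.85 CPM in the 4 VAPP58SRepo libraries of day 5 and 12.8, 12.5, 8.55 and 11.7 CPM in those of day 15, against 0.697, 3.34, 2.06 and 1.28 CPM in VAPP58S at day 5 and 4.47, 1.59, 2.75 and 4.42 CPM at day 15. The sets did not overlap, and w rose by 2.33 on the log2 scale (SE 0.35, edgeR adjusted p = 9.44e-05). Its group means in the 3 kay arms, which carry the driver plus a kay transgene, ran from 13.5 to 32.5 CPM, and in VAPWT flies of days 5, 15 and 20 from 2.18 to 4.04 CPM. yellow, a body pigment gene chosen here after its values were seen, had 0 reads in all 8 VAPP58SRepo libraries and 0.475 to 3.35 CPM in VAPP58S, at least 16.8-fold lower in VAPP58SRepo when the 8 libraries are pooled and 3 reads are taken as the limit of a count of 0. It was too low in count to be tested, with 89 reads in all 8 VAPP58S libraries together.

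Across all genes the sets differed in both directions. With age as a covariate, 848 of the 9495 genes tested (8.93%) passed at an adjusted p under 0.05, of which 464 (4.89%) were higher and 384 (4.04%) lower in VAPP58SRepo. The test was edgeR's quasi-likelihood test with Benjamini-Hochberg adjustment over all genes tested. Their sizes varied: 129 of the higher genes had a log2 fold change under 0.5, while 139 were over 1, and among the lower genes 92 lay above -0.5 and 142 below -1. When the test was whether a gene differed by more than 2-fold, 72 genes (0.758%) passed, 37 higher (0.39%) and 35 lower (0.369%). For 95 genes (1%) all 8 VAPP58SRepo libraries lay above all 8 of VAPP58S, and for 80 genes (0.843%) all lay below. Within both ages taken separately, 156 genes (1.64%) lay above and 163 (1.72%) below without overlap. Whether replicate libraries came from separate vials or collections is not stated in the labels, so these p-values measure the spread between libraries, which may be technical.

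**Figure D1:**
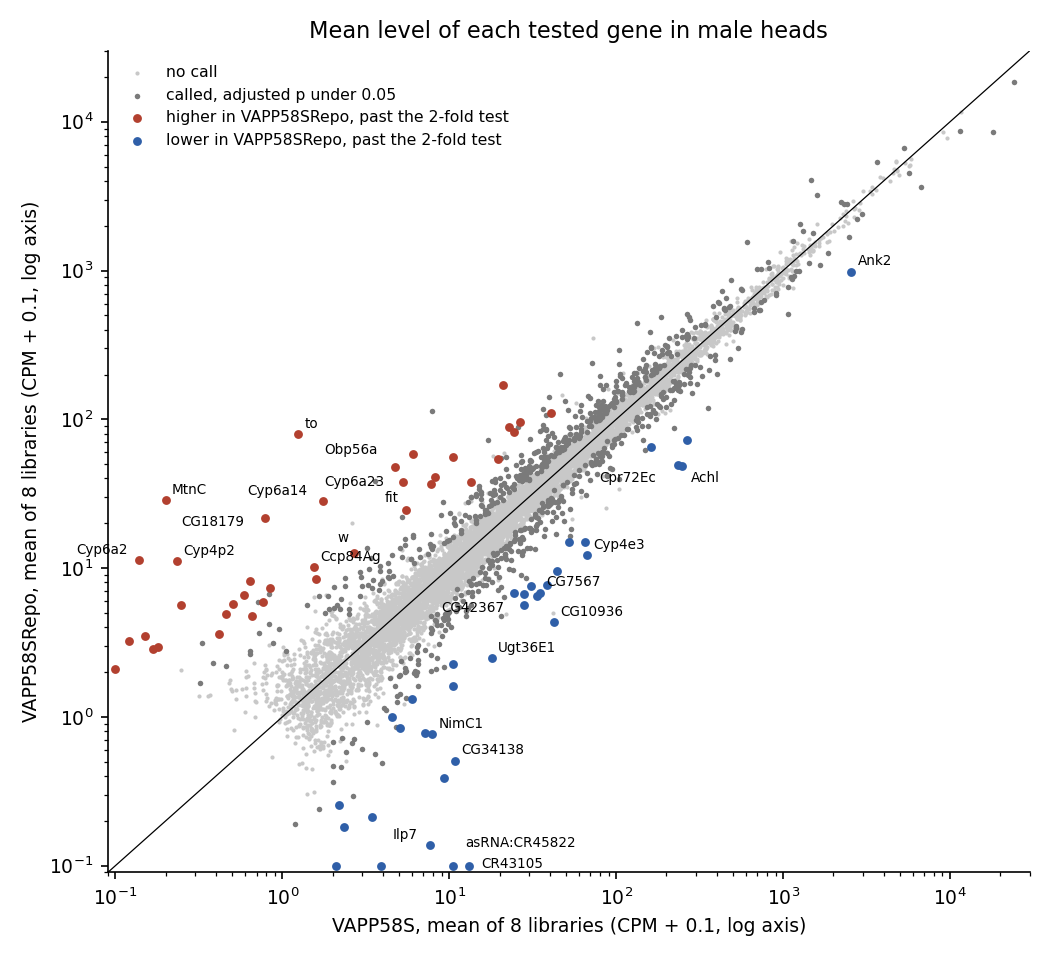
Mean level of each of the 9495 tested genes in VAPP58SRepo (vertical) and VAPP58S (horizontal) male heads, each the mean of 8 libraries in CPM plus 0.1 on log axes. Red and blue points are the 37 higher and 35 lower genes past the 2-fold test, and the line marks equal levels.

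The gene with the smallest p of all was takeout. to encodes a secreted protein of the juvenile hormone binding family made in the fat body of male heads, with known roles in feeding and courtship. It had 80.4, 58.7, 71.4 and 86.8 CPM in VAPP58SRepo at day 5 and 93.8, 78.8, 89 and 74.9 CPM at day 15, against 0.61, 0.85, 0.633 and 0.319 CPM in VAPP58S at day 5 and 2.79, 2.47, 0.816 and 0.699 CPM at day 15. The lowest VAPP58SRepo library was far above the highest of VAPP58S, and to rose by 6.17 on the log2 scale (SE 0.24, edgeR adjusted p = 5.71e-14). The gene lies on 3R at 25240180 to 25241668 (dm6, plus strand). Group means of to were 57.3 to 143 CPM in the 3 kay arms and 23.8 to 47.2 CPM in VAPWT, so VAPP58S was the low genotype among the male heads. Of the 6 fat body markers tested 2 rose and none fell, where 4.89% of all genes were higher. The list's median was 0.322, and 2 of the 6 had a negative fold change. Besides to, the 1 other that passed was apolpp, the precursor of the fly's main lipid carrier, which rose by 0.34 (SE 0.09, edgeR adjusted p = 0.0143). apolpp stood at 6850 CPM in replicate 3 of VAPP58S at day 5, inside the VAPP58SRepo range of 4920 to 7120 CPM.

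Cytochromes P450, the family that oxidises toxins, hormones and fatty acids, held changes of many-fold in both directions. Of 70 tested members 9 rose and 9 fell, against 8.93% of all genes called in either direction, and the list's median was -0.15 against -0.0146 over all genes. Without replicate 3 of VAPP58S at day 5, 11 rose and 10 fell. Cyp6a2, known to be more active in some insecticide-resistant strains, had 5.7 to 16.6 CPM (median 11.9) in VAPP58SRepo and only 3 reads in all 8 VAPP58S libraries together, a pooled ratio of 289 (95% exact interval 98.4 to 1408, for counting error only). Cyp4p2 had 7 to 17.1 CPM (median 10.2) in VAPP58SRepo and 9 reads in all of VAPP58S, a pooled ratio of 81.7 (42.6 to 180). Both genes were near absence in VAPP58S and clearly read in each VAPP58SRepo library.

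Cyp6a14 showed the same direction at a higher base, with 17.3 to 39.1 CPM (median 27.9) in VAPP58SRepo and 0.639 to 2.53 CPM (median 1.58) in VAPP58S, a log2 fold change of 4.09 (SE 0.25, edgeR adjusted p = 5.58e-10). Cyp6a23 stood at 20.2 to 47.8 CPM in VAPP58SRepo and 1.42 to 7.76 CPM in VAPP58S (2.88, SE 0.25). In the other direction, Cyp4e3 fell to 3.73 to 17.7 CPM (median 13.1) in VAPP58SRepo, against 35.6 to 83.1 CPM (median 71.3) in VAPP58S, a log2 fold change of -2.46 (SE 0.20, edgeR adjusted p = 1.86e-08). For each of these 3 genes the sets did not overlap. Close copies moved in opposite directions: Cyp4p1, next to Cyp4p2, fell by 1.83 (SE 0.15), and Cyp6a17, next to Cyp6a23, fell by 1.04 (SE 0.175). Cyp6a20, in the same stretch as Cyp6a23 and known from work on male aggression, fell by 2.09 (SE 0.23). How the counting split reads between such copies is not given, and the values of single copies are uncertain for that reason. Cyp4p1, Cyp6a17 and Cyp6a20 were chosen after their values were seen.

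The conjugating enzymes that act after P450s also moved both ways. Of 32 glutathione S-transferases 4 rose and 4 fell (median 0.0181), and of 19 UDP-glycosyltransferases 4 rose and 2 fell (median 0.17), where 4.89% of all genes were higher and 4.04% lower. GstD1, an abundant and stress-inducible transferase, fell to 167 to 316 CPM in VAPP58SRepo, against 343 to 569 CPM in VAPP58S (log2 fold change -0.89, SE 0.10, edgeR adjusted p = 3.45e-06). GstE11 rose by 1.22 (SE 0.19) and GstS1 by 0.74 (SE 0.15), while GstZ2 fell by 0.57 (SE 0.11). Among the glycosyltransferases, Ugt36E1 fell to at most 3.83 CPM in VAPP58SRepo, against 11.5 to 28.5 CPM in VAPP58S (-2.78, SE 0.26), and Ugt49B1 rose to 25.6 to 82.5 CPM, against 12.7 to 23.6 CPM (1.44, SE 0.17). Ugt301D1 and Ugt37D1 were higher by 0.74 (SE 0.11) and 0.97 (SE 0.16). MtnC, a metallothionein that binds copper and other metals, had 57.5, 17.9, 30.4 and 39.1 CPM in VAPP58SRepo at day 5 and 53.1, 1.03, 10.2 and 19.6 CPM at day 15, and 6 reads in all 8 VAPP58S libraries. Its pooled ratio was 332 (95% exact interval 152 to 906), with a wide spread among VAPP58SRepo libraries of day 15.

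**Figure D2:**
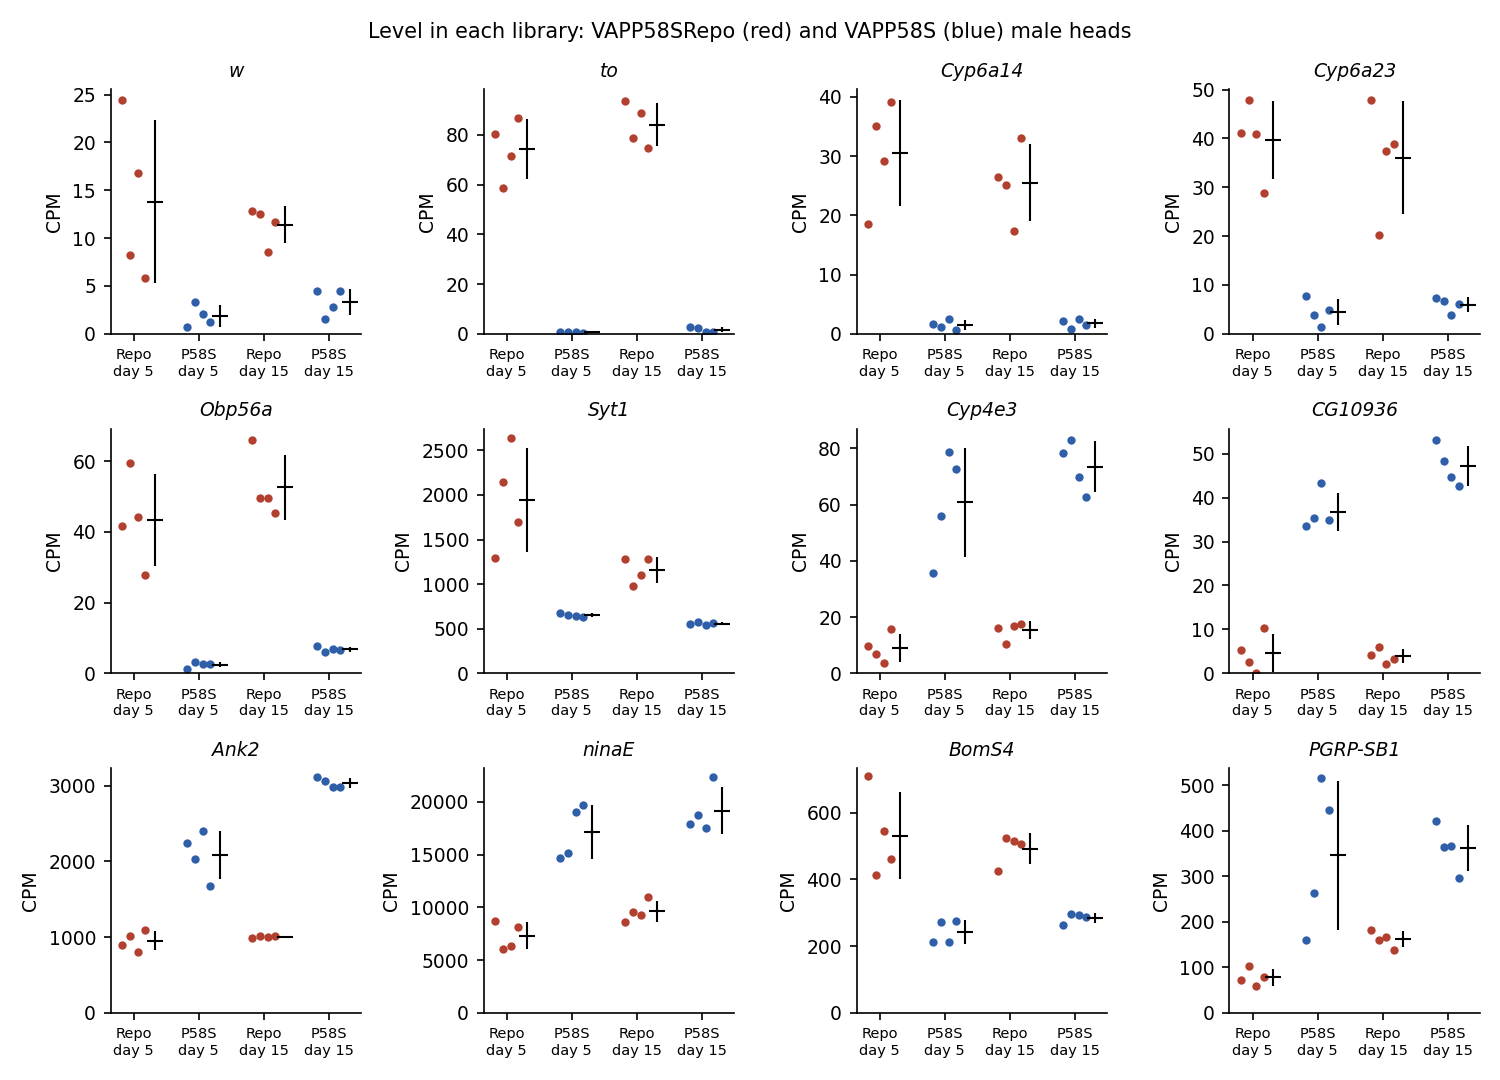
Level in CPM of 12 genes in each library of VAPP58SRepo (red) and VAPP58S (blue) male heads at days 5 and 15. Each point is 1 of 4 libraries, and the bar beside them is the mean ± SD; in the first 6 panels every red point lies above every blue point of the same age.

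Odorant-binding proteins, small secreted carriers of the antenna and other organs, moved both ways. Of 29 tested, 4 rose and 3 fell (median -0.0266), against 4.89% of all genes higher and 4.04% lower. Obp56a had 27.9 to 66 CPM (median 47.4) in VAPP58SRepo and 1.31 to 7.82 CPM (median 4.59) in VAPP58S, a log2 fold change of 3.52 (SE 0.22, edgeR adjusted p = 6.06e-10). Obp99c had 783 to 946 CPM in VAPP58SRepo and 393 to 559 CPM in VAPP58S (0.85, SE 0.09), and Obp69a 60.3 to 93.2 against 34.7 to 42.8 CPM (1.00, SE 0.10). None of these 3 overlapped between sets. Obp99a was low everywhere, at no more than 9 CPM in VAPP58SRepo and 0.697 CPM in VAPP58S, with 1 library of each set at 0 (3.60, SE 0.53). The 3 that fell, named after their values were seen, were Obp19b (-0.93, SE 0.20), Obp59a (-0.73, SE 0.13) and Obp28a (-0.66, SE 0.12).

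Other raised genes came from scattered functions. fit, a satiety peptide of the fat body that is richer in females, had 9.32 to 46.4 CPM in VAPP58SRepo and 0.728 to 10.9 CPM in VAPP58S (2.48, SE 0.36, edgeR adjusted p = 6.28e-05); the sets overlapped over both ages together but not within an age. Ccp84Ag, a larval cuticle protein gene, had 2.37 to 30.4 CPM in VAPP58SRepo and 0.233 to 4.53 CPM in VAPP58S (2.70, SE 0.39). Within each age its sets were apart, and its level was higher at day 5 than at day 15 in both. CG18179 ranged from 0.738 to 75.3 CPM in VAPP58SRepo and from 0 to 1.92 CPM in VAPP58S, and it again did not overlap within an age. Adh, alcohol dehydrogenase, chosen after its values were seen, stood at up to 15.8 CPM in VAPP58SRepo and up to 1.85 CPM in VAPP58S (3.96, SE 0.54). Of 29 cuticle protein genes tested 1 rose and 5 fell, with a median of -0.328, against 4.89% of all genes higher and 4.04% lower. Without replicate 2 of VAPP58S at day 5, 3 fell.

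A few genes fell to nothing or nearly so. CR43105, annotated as a pseudogene on 2R, and asRNA:CR45822, annotated as antisense to CTCF on 3L at 7355717 to 7356598 (dm6, plus strand), had 0 reads in all 8 VAPP58SRepo libraries. In VAPP58S, CR43105 had 7.34 to 19.6 CPM (median 13.4) and asRNA:CR45822 had 6.13 to 14.5 CPM (median 10.6). Pooled over the 8 libraries of a set, with 3 reads as the limit of a count of 0 in VAPP58SRepo, CR43105 was at least 166-fold lower and asRNA:CR45822 at least 133-fold lower. Both were also at 0 in the KayKD arm, while the KayWT and KaySCR arms had group means of 2.18 to 3.48 CPM for CR43105 and 3.6 to 4.59 CPM for asRNA:CR45822. VAPWT flies read both genes, at 19.1 to 29.9 CPM and 7.97 to 12.9 CPM. CR43186, close to CR43105, and asRNA:CR45835, close to asRNA:CR45822, also fell (-5.5, SE 0.74, and -4.92, SE 0.56). These 2 were named after their values were seen. Of 17830 genes, 11 had 0 reads in all VAPP58SRepo libraries and a mean of at least 1 CPM in VAPP58S, and 3 the reverse. Pooled depth was 39.9 M gene reads in VAPP58SRepo and 70.7 M in VAPP58S. The labels do not describe what sets the KaySCR construct apart from KayWT.

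Ilp7, an insulin-like peptide of a few neurons, was chosen after its values were seen because it ran the other way across genotypes. It had 2 reads in all 8 VAPP58SRepo libraries and 2.96 to 13.1 CPM (median 7.23) in VAPP58S, a pooled ratio of VAPP58S over VAPP58SRepo of 144 (95% exact interval 39.6 to 1190). Group means of Ilp7 were at most 0.329 CPM in the kay arms and at most 0.403 CPM in VAPWT, so VAPP58S was the only male genotype with a mean above 1 CPM. CG34138 fell to at most 1.32 CPM in VAPP58SRepo, with 3 libraries at 0, against 4.19 to 18.5 CPM in VAPP58S (-4.44, SE 0.37, edgeR adjusted p = 2.65e-08). CG10936 fell to at most 10.3 CPM, against 33.6 to 53.1 CPM (-3.28, SE 0.27), and CG7567 to 2.8 to 14.7 CPM, against 13 to 50 CPM (-2.35, SE 0.26). CG42367 fell to at most 11.7 CPM in VAPP58SRepo, against 19.8 to 39.6 CPM in VAPP58S (-2.28, SE 0.33). Ilp7, CG34138, asRNA:CR45822, Cyp4p2 and yellow each overlap another gene, and since the sources used here do not say whether counting used strand, reads of such partners cannot be told apart.

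Achl, reported to cycle under the neuronal clock, was lower at both ages. It had 56.9, 106, 77.6 and 67.5 CPM in VAPP58SRepo at day 5 and 19.8, 21.8, 19.2 and 20 CPM at day 15, against 390, 356, 148 and 335 CPM in VAPP58S at day 5 and 191, 191, 185 and 193 CPM at day 15. No VAPP58SRepo library reached the lowest VAPP58S library, and the log2 fold change was -2.59 (SE 0.22, edgeR adjusted p = 2.77e-08). Its 4 VAPP58S libraries of day 15 agreed closely, and replicate 3 of VAPP58S at day 5 was the low one of its group.

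The eye showed lower RNA for the photoreceptor machinery. Of 12 photoreceptor genes, 5 fell and none rose at an adjusted p under 0.05, with a median of -0.367, where 4.04% of all genes fell; the counts were also 5 and 0 when any 1 library was left out. ninaE, the main rhodopsin, had 8690, 6060, 6350 and 8170 CPM in VAPP58SRepo at day 5 and 8580, 9600, 9270 and 11000 CPM at day 15, against 14700, 15200, 19000 and 19700 CPM in VAPP58S at day 5 and 17900, 18800, 17500 and 22400 CPM at day 15. The sets were apart at both ages, and ninaE fell by 1.10 (SE 0.10, edgeR adjusted p = 4.13e-08). trp, the light-gated cation channel, fell by 0.41 (SE 0.07) and was also apart, and inaC, the eye protein kinase C, fell by 0.63 (SE 0.11). Rh6 and Rh5, rhodopsins of the inner photoreceptors, were lower by 0.38 (SE 0.08) and 1.01 (SE 0.26), with Rh5 at no more than 6.65 CPM in VAPP58SRepo and 11.5 CPM in VAPP58S. In bulk heads, fewer cells of a type and less RNA per cell cannot be told apart.

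Not all eye genes were lower. norpA, the phospholipase C of the light response, averaged 2930 CPM in VAPP58SRepo and 2640 CPM in VAPP58S, Arr1 2270 and 2190 CPM, and Arr2 4730 and 4810 CPM, none of which passed. Cpn, calphotin, a calcium-binding protein of photoreceptors chosen after its values were seen, fell to 51.6 to 75.7 CPM in VAPP58SRepo, against 138 to 191 CPM in VAPP58S (-1.30, SE 0.09). Cpr72Ec, a component of the corneal lens, fell to 33.3 to 62 CPM in VAPP58SRepo, against 131 to 309 CPM in VAPP58S (-2.22, SE 0.15, edgeR adjusted p = 1.36e-09). Neither overlapped between sets. Of 18 eye pigment genes, w was the only one that rose, where 4.89% of all genes were higher. Without replicate 3 of VAPP58S at day 5, 2 rose. v, which makes the brown pigment precursor, was lower by 1.78 at no more than 4.47 CPM, and its call was lost without any 1 of 7 libraries, with adjusted p up to 0.0684. white is itself an eye gene, and its part in the levels of other eye genes was not tested.

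Markers of neurons and glia were close in level with few exceptions. Of 9 neuronal markers only Syt1 passed with age as a covariate, and of 10 glial markers only Eaat1, where 8.93% of all genes were called in either direction. Within an age, the 1 glial call at day 5 was nrv2, named after its values were seen (0.71, edgeR adjusted p = 0.000666). At day 15 it was Eaat1 (0.45, edgeR adjusted p = 0.0478). Of all genes 4.95% were called at day 5 and 5.19% at day 15. Syt1, the calcium sensor of synaptic vesicle release, had 1290, 2140, 2640 and 1700 CPM in VAPP58SRepo at day 5 and 1280, 981, 1100 and 1280 CPM at day 15, against 679, 655, 645 and 630 CPM in VAPP58S at day 5 and 551, 574, 544 and 559 CPM at day 15. No libraries overlapped, and Syt1 rose by 1.34 (SE 0.13, edgeR adjusted p = 2.13e-07). The pan-neuronal elav averaged 344 CPM in VAPP58SRepo and 383 CPM in VAPP58S, nSyb 1650 and 1690 CPM, and brp 539 and 473 CPM, with no call. Group means of Syt1 were 699 to 1430 CPM in the kay arms and 433 to 634 CPM in VAPWT. Syt1 overlaps a long noncoding RNA gene.

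Eaat1, the glial glutamate transporter, had 280 to 433 CPM in VAPP58SRepo and 245 to 299 CPM in VAPP58S (0.41, SE 0.09, edgeR adjusted p = 0.00624). The summed level of the 10 glial markers was 5280 to 7050 CPM in VAPP58SRepo at day 5 and 4850 to 5460 CPM at day 15, against 4910 to 9190 CPM in VAPP58S at day 5 and 3780 to 5230 CPM at day 15, and none of the 10 was at 0 in a group. Most of this sum was 1 marker, Gs2, which averaged 4780 CPM in VAPP58SRepo and 4640 CPM in VAPP58S, so the sum says little about the others. Ank2, a neuronal ankyrin that anchors the axonal skeleton and was chosen after its values were seen, fell to 808 to 1090 CPM in VAPP58SRepo, against 1670 to 3120 CPM in VAPP58S (-1.35, SE 0.09, edgeR adjusted p = 7.79e-10). Of 27 neuropeptide genes 4 rose and 1 fell, against 4.89% of all genes higher and 4.04% lower. Without replicate 3 of VAPP58S at day 5, 5 rose and none fell. The 1 that fell was Dsk, drosulfakinin, named after its values were seen (-0.31, SE 0.10, edgeR adjusted p = 0.048). sNPF, a peptide of feeding circuits, had 52.8 to 163 CPM in VAPP58SRepo and 38 to 66.5 CPM in VAPP58S (1.14, SE 0.13), Nplp2 rose by 0.58 (SE 0.12) and Nplp3 by 0.40 (SE 0.08). AstA rose by 0.38, a call lost without any 1 of 12 libraries, with adjusted p up to 0.0905.

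Some clock genes were higher. The core clock gene timeless, the repressor gene vrille and the activator gene Pdp1 passed with age as a covariate, so that 3 of 9 clock genes were higher and none lower (median 0.231), where 4.89% of all genes were higher. tim had 180, 153, 112 and 136 CPM in VAPP58SRepo at day 15, against 55.6, 50.8, 45.7 and 41.2 CPM in VAPP58S, a log2 fold change at that age of 1.63 (edgeR adjusted p = 7.83e-06). At day 5 it had 95.3 to 185 CPM in VAPP58SRepo and 75.5 to 109 CPM in VAPP58S, with no call (0.52, edgeR adjusted p = 0.106). vri followed with 144 to 164 CPM in VAPP58SRepo and 55.5 to 63.9 CPM in VAPP58S at day 15. The test of the difference between ages did not pass for either gene (edgeR adjusted p = 0.0646 for tim and 0.0689 for vri). The hour at which heads were taken is not in the labels, and its part in these genes was not tested.

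**Figure D3:**
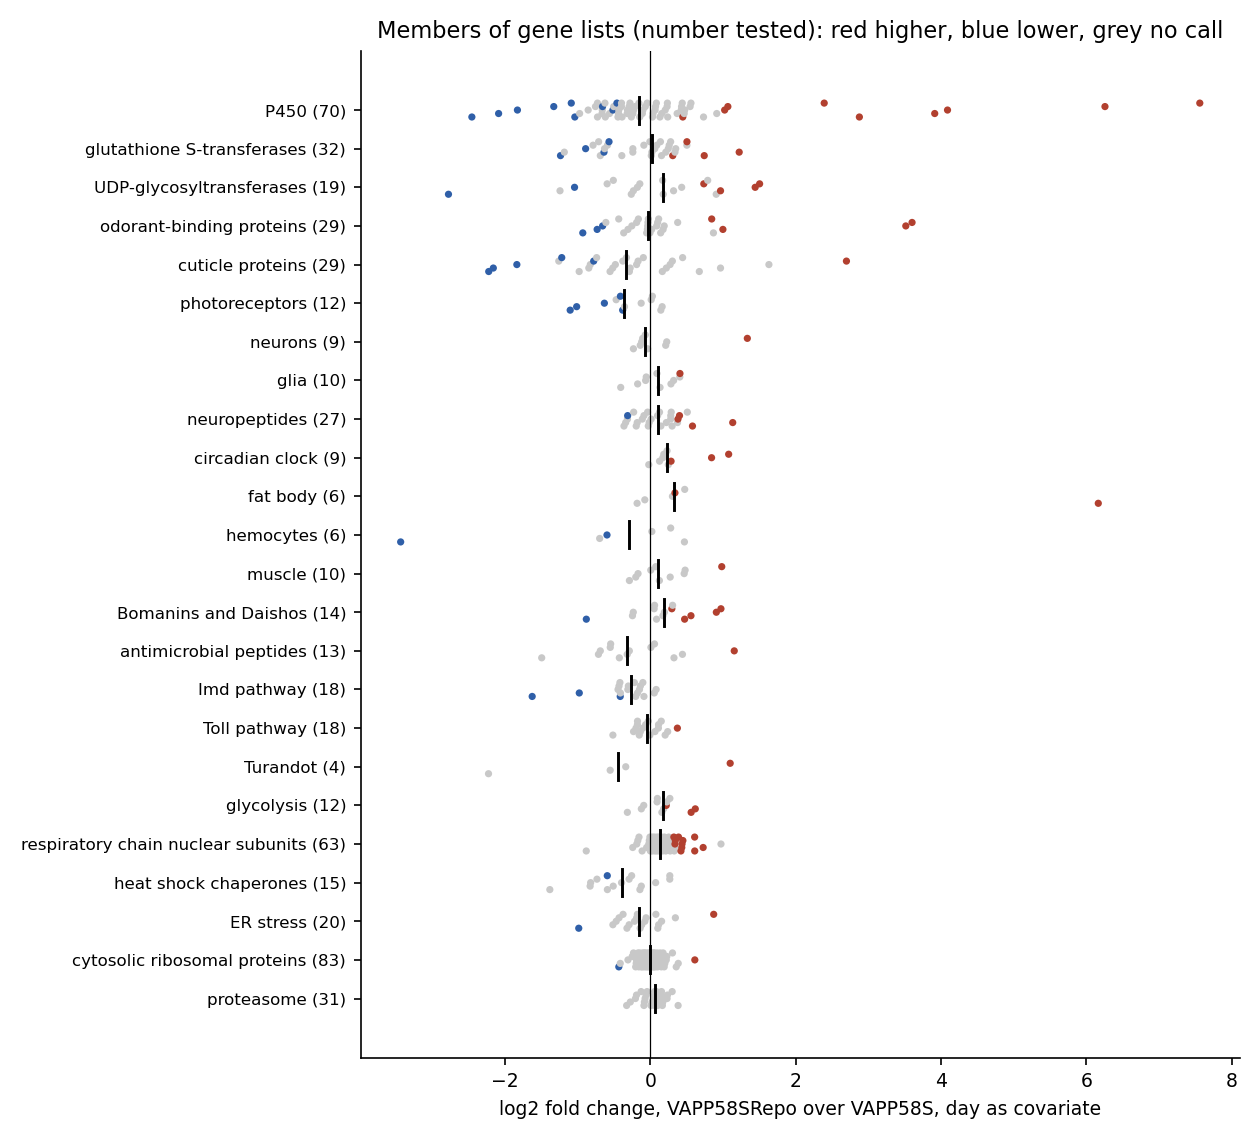
log2 fold change of each tested member of 24 gene lists, VAPP58SRepo over VAPP58S with age as a covariate; each point is a gene, red and blue points passed the test, grey did not, and the black bar is the list's median. P450 genes reach farthest on the higher side, while ribosomal and proteasome genes lie close to 0.

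Among immune genes, the called Bomanins, short secreted peptides induced through the Toll pathway, moved both ways. Of 14 Bomanin and Daisho genes 5 rose and 1 fell, all 6 of them Bomanins, with a list median of 0.184, against 4.89% of all genes higher and 4.04% lower. Without replicate 3 of VAPP58S at day 5, 4 rose and 2 fell. BomS4 had 412 to 709 CPM in VAPP58SRepo and 212 to 297 CPM in VAPP58S (0.97, SE 0.11, edgeR adjusted p = 2.21e-06). BomBc1 had 145 to 295 CPM in VAPP58SRepo and 85.2 to 130 CPM in VAPP58S (0.91, SE 0.12), and neither overlapped. BomS2 rose by 0.56 (SE 0.11) and BomT1 fell by 0.88 (SE 0.20).

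The Imd pathway is the branch that senses bacterial peptidoglycan. Of 18 tested members 3 fell and none rose, where 4.04% of all genes fell. A negative fold change was seen in 16 of the 18 (median -0.26), and in 4906 of the 9495 genes tested. PGRP-SB1, a secreted peptidoglycan-cutting enzyme, had 71.9, 102, 58.4 and 78.7 CPM in VAPP58SRepo at day 5 and 181, 159, 166 and 139 CPM at day 15, against 159, 264, 515 and 445 CPM in VAPP58S at day 5 and 421, 364, 367 and 296 CPM at day 15. The groups were apart within each age, and it fell by 1.62 (SE 0.20, edgeR adjusted p = 9.5e-06). PGRP-LF, which dampens the pathway, fell by 0.98 (SE 0.24). Rel, its transcription factor, was lower by 0.41, a call lost without any 1 of 7 libraries, with adjusted p up to 0.074. Antimicrobial peptides spread widely between libraries and 1 of 13 was called, where 8.93% of all genes were called in either direction. Def rose by 1.16, a call lost without any 1 of 3 libraries, with edgeR adjusted p up to 0.0521. DptA, an Imd target chosen after its values were seen, ranged from 24.1 to 249 CPM in VAPP58SRepo and from 24.3 to 465 CPM in VAPP58S, and did not pass. The 1 call of 18 Toll pathway genes (SPE, 0.37) and the 1 call of 19 AP-1 and JNK pathway genes (bsk, -0.45) were lost without any 1 of 13 and of 9 libraries, with adjusted p up to 0.0912 and 0.0762.

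NimC1, a phagocytosis receptor of hemocytes, fell to at most 2.14 CPM in VAPP58SRepo, with 4 libraries at 0, against 4.1 to 10.6 CPM in VAPP58S (-3.44, SE 0.49, edgeR adjusted p = 4.97e-05). Other markers of hemocytes gave a mixed picture. Hml averaged 53 CPM in VAPP58SRepo and 38.2 CPM in VAPP58S, crq 123 and 102 CPM, and eater 2.61 and 2.71 CPM, none with a call, while Pxn, which crosslinks basement membranes, fell by 0.60 (SE 0.14). Of 6 markers tested 2 fell and none rose, where 4.04% of all genes were lower and 4.89% higher. Without replicates 3 and 4 of VAPP58SRepo at day 5, 2 fell and 2 rose. The summed level of the 7 markers was 140 to 245 CPM in VAPP58SRepo and 177 to 218 CPM in VAPP58S, with He near 0 in both (0.189 and 0.0946 CPM). Group means of NimC1 were 3.82 to 6.74 CPM in the kay arms and 6.32 to 9.96 CPM in VAPWT.

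Some nuclear genes of energy metabolism were higher. Of 63 nuclear genes for the respiratory chain and ATP synthase 11 rose and none fell, with a median of 0.136 and 53 positive fold changes, where 4.89% of all genes were higher and 4.04% lower. At day 5, 17 rose and none fell, with a list median of 0.306, where 2.74% of all genes were higher and 2.21% lower. At day 15, 1 rose and 2 fell, with a list median of -0.0398, where 3.09% of all genes were higher and 2.11% lower. The test of the difference between ages passed for 3 of the 63, where 0.4% of all genes passed. ND-30 and ND-15, complex I subunits, rose by 0.61 (SE 0.09) and 0.61 (SE 0.11), and ATPsynO of the ATP synthase by 0.73 (SE 0.18). The count was 6 without replicate 2 of VAPP58SRepo at day 5 or without replicate 2 of VAPP58S at day 5. It was 7 without replicate 3 of VAPP58SRepo at day 5, alone or with replicate 4, and without replicate 1 or 4 of VAPP58S at day 5. The day 5 count stayed at 12 to 20 with any 1 library left out.

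Of 13 mitochondrially encoded genes 2 fell and none rose, with a median of -0.00893, where 4.04% of all genes fell. Without replicate 3 of VAPP58S at day 5, 3 fell. The list's median fold change was 0.136 at day 5 and -0.251 at day 15. mt:CoI, a subunit of cytochrome c oxidase, fell by 0.36 (SE 0.11, edgeR adjusted p = 0.0333), and mt:ND3, a complex I subunit, by 0.59 (SE 0.18, edgeR adjusted p = 0.0428). These calls were lost without any 1 of 9 and of 11 libraries, with adjusted p up to 0.0712 and 0.0956.

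The summed level of 10 muscle markers was 3370 to 3800 CPM in VAPP58SRepo and 2520 to 2780 CPM in VAPP58S at day 5, and 1940 to 2080 CPM in VAPP58SRepo and 2480 to 2670 CPM in VAPP58S at day 15, and none was at 0 in a group. Of these markers 4 rose at day 5, where 2.74% of all genes were higher, and 2 fell at day 15, where 2.11% were lower; without replicates 3 and 4 of VAPP58SRepo at day 5 the day 5 count was 2. Act88F, an actin of the flight muscle, had 43.5 to 71.5 CPM in VAPP58SRepo and 13.6 to 28.2 CPM in VAPP58S at day 5 (1.53, edgeR adjusted p = 0.000127). The part of muscle carried with the heads in the energy genes was not tested.

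A few sugar and fat enzymes rose. Of 12 glycolysis genes 3 rose, and of 17 genes of fat synthesis and lipolysis 3 rose, with no falls, where 4.89% of all genes were higher. Without replicate 2 of VAPP58SRepo at day 5, 5 of the 17 rose. Pgi, the isomerase at the start of glycolysis, had 263 to 388 CPM in VAPP58SRepo and 186 to 217 CPM in VAPP58S (0.62, SE 0.08, edgeR adjusted p = 1.37e-05), and Gapdh1 rose by 0.56 (SE 0.11). The third, Ald1, was called at 0.22 and lost without any 1 of 13 libraries, with adjusted p up to 0.105. Gpdh1, which links glycolysis to glycerol lipids, had 432 to 593 CPM in VAPP58SRepo and 205 to 361 CPM in VAPP58S (0.85, SE 0.10). Mtpalpha and ATPCL rose by 0.41 (SE 0.09) and 0.44 (SE 0.11). Of the 14 genes linked to VAP and membrane contact sites 2 rose and 1 fell, where 4.89% of all genes were higher and 4.04% lower. CG42668 rose by 0.62 (SE 0.11). vib fell by 0.39 (edgeR adjusted p = 0.0209), a call lost without 1 library, at an adjusted p of 0.0573. Vps13B rose by 0.73 (edgeR adjusted p = 0.029), a call lost without any 1 of 7 libraries, with adjusted p up to 0.0747.

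Genes of protein folding and synthesis gave few calls. Cnx99A, calnexin, fell to 105 to 246 CPM in VAPP58SRepo, against 281 to 563 CPM in VAPP58S (-0.98, SE 0.13, edgeR adjusted p = 1.98e-05), and Gp93, the Hsp90 of the endoplasmic reticulum, rose to 139 to 221 CPM, against 58.4 to 114 CPM (0.87, SE 0.12). They were the 2 calls among 20 genes of endoplasmic reticulum stress, where 8.93% of all genes were called, and neither overlapped between sets. Of 15 heat shock chaperones 1 fell and none rose, where 4.04% of all genes fell. Of the 15, 12 had a negative fold change, and the median was -0.395, against -0.0146 over all genes. The 1 called was Hsc70-4, a cognate Hsp70, at -0.59 (SE 0.16, edgeR adjusted p = 0.0239), a call lost without any 1 of 4 libraries, with adjusted p up to 0.055; without replicate 4 of VAPP58SRepo at day 15, 3 chaperones fell. Of 83 cytosolic ribosomal protein genes only RpS12 rose and only RpL6 fell, where 8.93% of all genes were called in either direction. RpS12 rose by 0.61 (SE 0.08), with 541 to 683 CPM in VAPP58SRepo and 339 to 457 CPM in VAPP58S. RpL6 fell by 0.43 (SE 0.08), and the list's median was -0.00882. Without replicate 3 of VAPP58S at day 5, 4 of the 83 fell, and without replicate 2 of VAPP58SRepo at day 5, 3 fell. The median of 31 proteasome genes was 0.0619, and that of 14 orthologues of ALS genes -0.0792.

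The changes were not spread evenly over the chromosomes. On 2L, 2R, 3L and 3R between 8.35% and 11.4% of tested genes were called, and on X 4.91% (40 higher and 37 lower of 1567). Of the 72 genes past the 2-fold test 3 lie on X, or 0.191% of its tested genes, against 0.494% to 1.14% on the large autosome arms. These shares are descriptions of neighbouring and unequal sets of genes, and their difference was not tested. Of 5416 single transposable element insertions, 4 had 0 reads in all VAPP58S libraries and a mean of at least 1 CPM in VAPP58SRepo, 2 the reverse, and 247 at least 1 CPM in both.

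The effect of age on the difference was tested for each gene. At day 5 alone 470 genes (4.95%) passed, 260 higher (2.74%) and 210 lower (2.21%). At day 15 alone 493 (5.19%) passed, 293 higher (3.09%) and 200 lower (2.11%). Without replicate 1 of VAPP58SRepo at day 5 the day 5 count was 711, and without replicate 3 of VAPP58S at day 15 the day 15 count was 306. Of the genes called, 189 passed in the same direction at both ages, and 4 in opposite directions. The difference between ages passed for 38 genes (0.4%), 18 with a more positive fold change at day 15 (0.19%) and 20 with a more negative one (0.211%). This count rests on the spread of a few libraries: it was 113 without replicate 3 of VAPP58S at day 5 and 25 without replicate 3 of VAPP58S at day 15.

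TotC was among the genes with a more negative fold change at day 15. This Turandot peptide of the stressed fat body had 44.9, 21.7, 8.7 and 17.5 CPM in VAPP58SRepo and 4.45, 7.16, 8.07 and 4.15 CPM in VAPP58S at day 5, then 30.1, 20.5, 36.3 and 22.6 CPM in VAPP58SRepo and 74.6, 129, 109 and 359 CPM in VAPP58S at day 15. It was thus higher than VAPP58S in young heads and lower in older ones, a difference between ages of -4.61 (SE 0.63, edgeR adjusted p = 0.000849). TotA, chosen after its values were seen, followed (-2.23, SE 0.47), and TotX rose with age as a covariate (1.10, SE 0.21). Turandot genes are close copies, and single values are uncertain.

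CG7203 and CG7214, neighbouring genes on 2L, were high only in young VAPP58SRepo heads. CG7203 had 501 to 750 CPM in VAPP58SRepo and 41.3 to 116 CPM in VAPP58S at day 5, and 38 to 51.6 CPM and 52.6 to 70.6 CPM in the same order at day 15 (difference -3.23, SE 0.32, edgeR adjusted p = 1.97e-05). CG7214 had 49.1 to 93.6 CPM in VAPP58SRepo and 3.19 to 6.33 CPM in VAPP58S at day 5, and at most 1.98 CPM and 3.07 CPM at day 15. CG43402 and CG4000 had differences of -3.03 (SE 0.35) and -1.62 (SE 0.25). Act57B, a muscle actin, and nrv2, a sodium pump subunit used as a glial marker, both chosen after their values were seen, differed by -0.99 (SE 0.17) and -0.76 (SE 0.17).

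**Figure D4:**
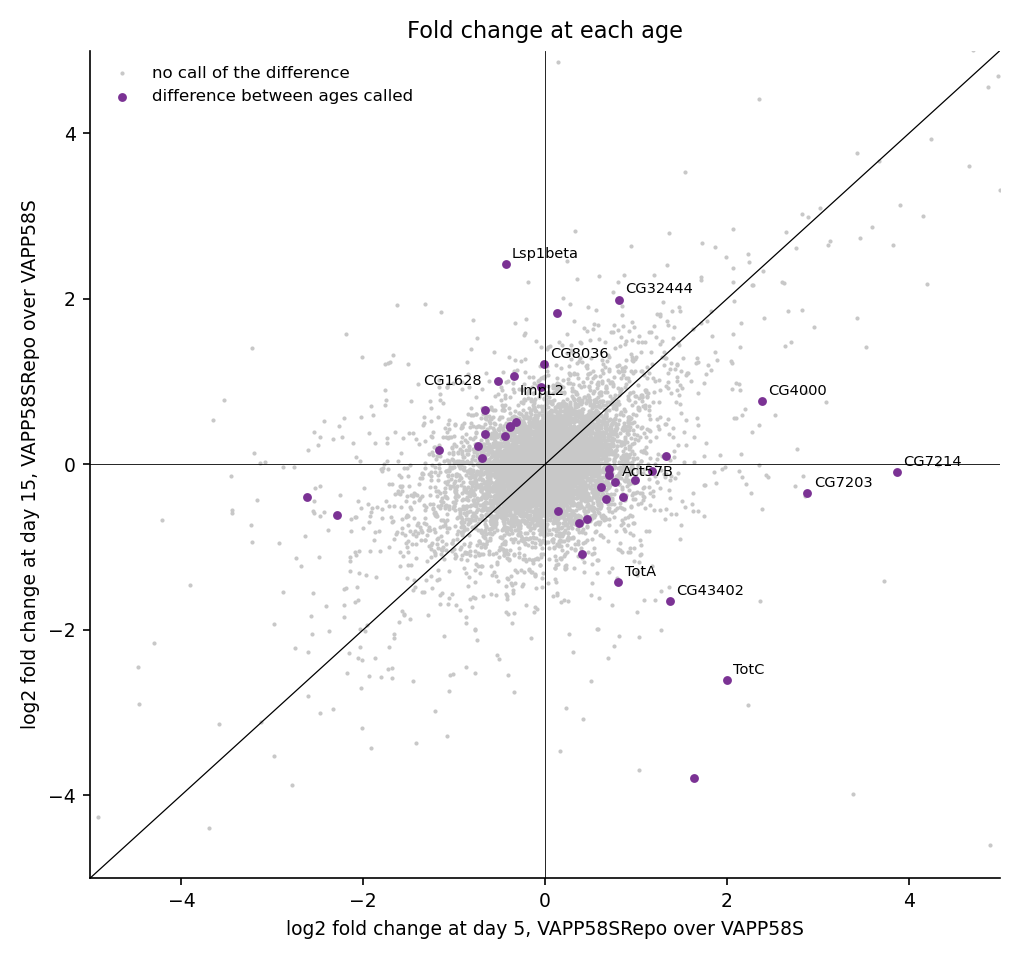
log2 fold change of VAPP58SRepo over VAPP58S at day 15 (vertical) against day 5 (horizontal) for each tested gene; purple points are the 38 genes whose difference between ages passed, and the diagonal marks equal change. The 37 genes beyond a log2 fold change of 5 at either age lie outside the axes; CG7214 and CG7203 lie far to the right near 0 on the vertical axis, and Lsp1beta lies high on the left.

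Lsp1beta and ImpL2 were among the genes with a more positive fold change at day 15. Lsp1beta, a storage protein of the hexamerin family, had 353, 133, 148 and 123 CPM in VAPP58SRepo and 159, 233, 412 and 221 CPM in VAPP58S at day 5, then 523, 519, 311 and 320 CPM in VAPP58SRepo and 53.9, 65.9, 82.3 and 114 CPM in VAPP58S at day 15 (difference 2.86, SE 0.45, edgeR adjusted p = 0.00341). The sets overlapped at day 5 and were far apart at day 15. ImpL2, a secreted protein that binds and restrains insulin-like peptides, had 139 to 173 CPM in VAPP58SRepo and 65.8 to 80.6 CPM in VAPP58S at day 15, with overlapping values at day 5 (difference 1.41, SE 0.23). CG8036, which encodes a transketolase-like enzyme, CG32444 and CG1628 had differences of 1.23 (SE 0.18), 1.18 (SE 0.18) and 1.52 (SE 0.23).

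The other male genotypes place these levels. Over days 5 and 15, the 10 most raised and 10 most lowered genes named by size were compared with VAPWT by mean log2 level (CPM plus 0.1). VAPWT was nearer to VAPP58S for 6 of the 10 raised and 8 of the 10 lowered genes, and nearer to VAPP58SRepo for 4 raised (MtnC, Cyp6a2, to and Cyp6a14) and 2 lowered (Cyp4e3 and CG42367). All 3 kay arms were nearer to VAPP58SRepo for 8 of the raised and 4 of the lowered genes. Cyp4p2 marks the first kind: its group means were 10.4 and 11.8 CPM in VAPP58SRepo, 9.28 to 31.8 CPM in the kay arms, at most 0.267 CPM in VAPP58S and at most 0.18 CPM in VAPWT. Cyp6a14 marks the second, at 25.5 and 30.5 CPM in VAPP58SRepo, 11.4 to 28.2 CPM in the kay arms, 1.51 to 2.56 CPM in VAPP58S and 15.8 to 21.1 CPM in VAPWT. These are descriptions, since the genes were chosen by the difference between VAPP58SRepo and VAPP58S.

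**Figure D5:**
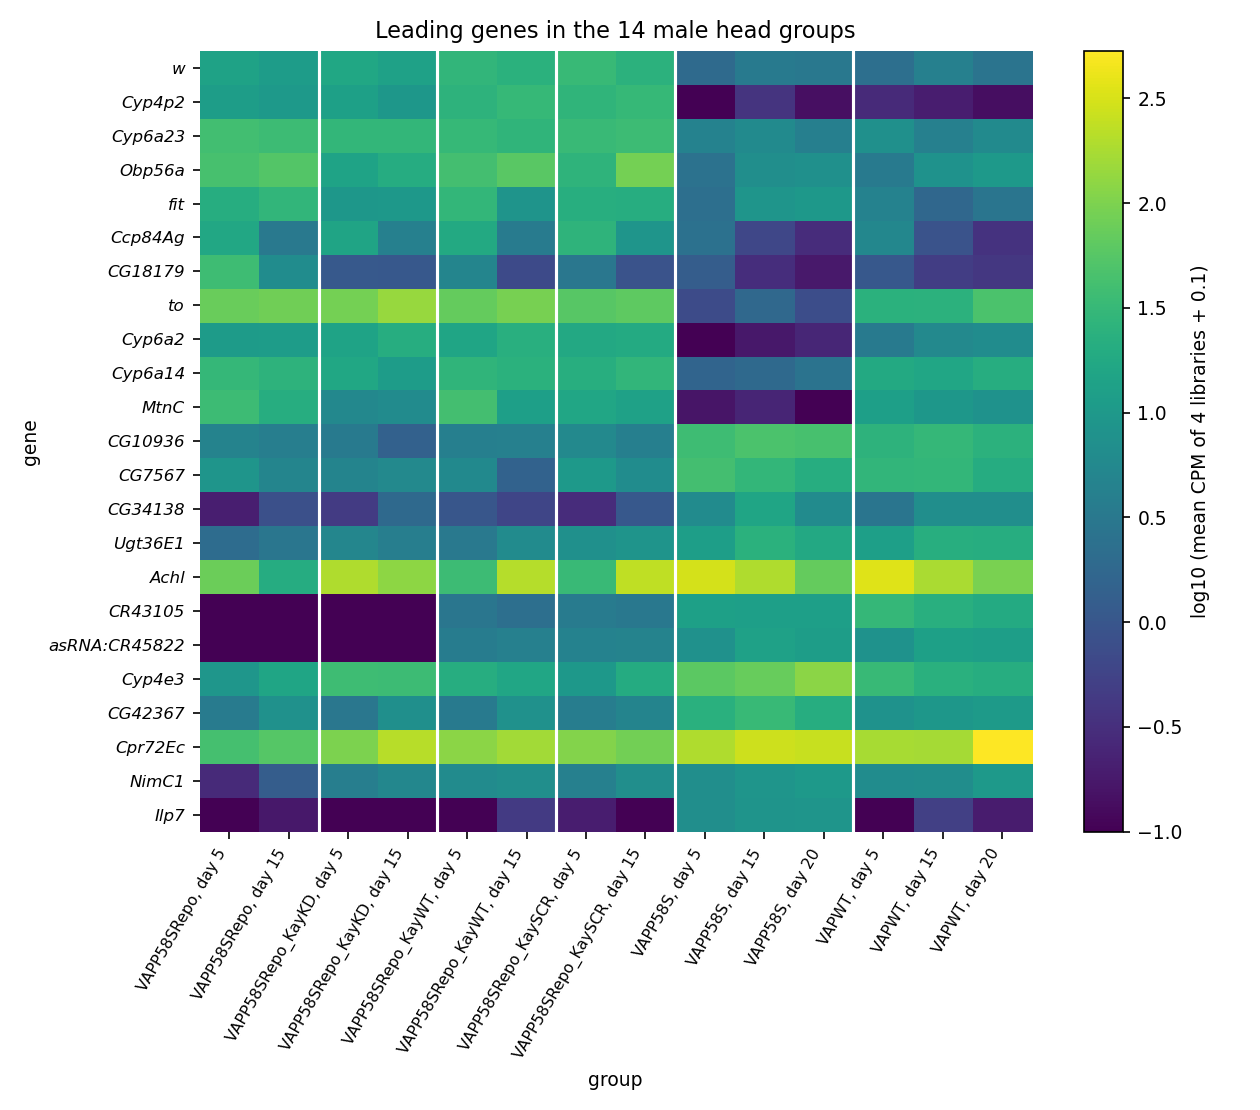
Mean level of 23 genes in the 14 male head groups of 4 libraries each, as log10 of the mean CPM plus 0.1. Columns run from VAPP58SRepo and its kay arms to VAPP58S and VAPWT; w, Cyp4p2 and Cyp6a23 are high in every group with the driver, and to, Cyp6a14, Cyp6a2 and MtnC are low in the 3 VAPP58S groups only.

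A comparison that shares no library with the first was made between the 24 libraries of the 3 kay arms and the 8 VAPWT libraries of the same ages. These sets differ in driver, stock and inferred sequencing batch, as the first do, but also in VAP P58S and in the kay transgenes. There 1256 of 9869 genes passed (12.7%), 656 higher (6.65%) and 600 lower (6.08%) in the kay arms. Of the 460 genes higher in VAPP58SRepo that were also tested there, 206 (44.8%) were higher in the kay arms and 8 lower, against 6.75% higher among all 9434 genes tested in both. Of the 382 lower genes 163 (42.7%) were lower and 6 higher, against 6.18% lower among all. The 206 and 163 shared genes make 32.3% and 28% of the genes called in those directions in the kay arms and tested in both comparisons. Among genes past the 2-fold test, 24 of 34 higher genes (70.6%) and 25 of 34 lower genes (73.5%) were called the same way.

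Named genes were divided in that comparison. w (2.88), Cyp4p2 (6.97), Cyp6a23 (2.49), Obp56a (2.84), Syt1 (0.66) and sNPF (0.94) had log2 fold changes of kay arms over VAPWT that passed with the same sign, as did CG10936 (-2.87), Ank2 (-0.89), Cpn (-1.08) and Cnx99A (-0.67). Cyp6a14 (0.29), MtnC (0.48), BomBc1 (-0.25), PGRP-SB1 (-0.31), NimC1 (-0.25), tim (0.01) and Cyp4e3 (-0.35) did not pass there. Nplp3, higher in VAPP58SRepo, passed with the opposite sign (-0.30, SE 0.08, edgeR adjusted p = 0.00922). So did the lysozyme gene LysP, at -1.11 (SE 0.38, edgeR adjusted p = 0.04996) against 1.60 (SE 0.42) in the first comparison. ninaE fell by 0.36 in the kay arms (SE 0.11, edgeR adjusted p = 0.019), while trp did not pass (-0.10).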

How the data were processed

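Whole male heads were profiled by 3′ mRNA sequencing (a V2 FWD kit with unique dual indices, phenol-chloroform extraction), per the labels' protocols. The deposited table holds whole-number read counts, not normalized, made by the authors; the submitters' processing notes name the build dm6, while no aligner, counter or annotation is given in the sources used here. It lists 17830 genes, 5416 transposable element insertions and 750 other features; library sizes and tests used genes alone. Gene positions come from an Ensembl BDGP6 annotation, in which 17751 gene identifiers were found.

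Genes were tested with edgeR 4.0.16 in R 4.3.3 (TMM scaling, filterByExpr, quasi-likelihood fit, glmTreat for a fold above 2), with age as a covariate, on the 16 libraries. P-values were adjusted by Benjamini-Hochberg over all genes tested. SE values belong to log2 fold changes. Alternatives were RLE scaling, no filter, DESeq2 1.42.0, limma-voom 3.58.1 with library weights, thinned counts, a replicate term, all 56 male libraries in 1 fit and leaving out each library. On simulated counts with 200 changed genes the main comparison recovered 192 with 5 false calls. The 2-fold test recovered 95 of the 200. Equal numbers were planted at exactly 2-fold and at a larger fold, and that test is not meant to call the first. The simulation held no age effect, no deviant library, no planted change under 2-fold and none in genes of low level. It does not measure recovery of smaller changes or of low genes.

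Genes were named by rule: the label genes; the 10 higher and 10 lower genes of largest fold past the 2-fold test with at least 10 CPM and no overlap at either age; up to 4 called members per list; the 5 and 5 smallest p for the difference between ages; and genes at 0 in one set. Members and lists were chosen with earlier results of these data known. Intervals and limits of a count of 0 (3 reads) cover counting error only. No sequences are shown.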

Additional observations from a re-analysis of the deposited data

Results flagged for a closer look

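Of 479 groups of 4 libraries checked for a library far from its 3 companions, 36 had one, and chance alone gives about 1 in 20. Replicate 3 of VAPP58S at day 5 accounts for 11 of the 36 and replicate 1 of VAPP58SRepo at day 5 for 6.

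Replicate 3 of VAPP58S at day 5 was high for apolpp at 6850 CPM, Hsc70-4 at 2090 CPM, Cnx99A at 563 CPM, Cpr11B at 43.2 CPM and Ugt36E1 at 13.6 CPM. It was low for RpL6 at 808 CPM, Gapdh1 at 328 CPM, CG42668 at 156 CPM, vri at 50.9 CPM, GstS1 at 42.9 CPM and mRpL43 at 7.75 CPM. The same library had the low mitochondrial share, and its part in these values was not tested.

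Replicate 1 of VAPP58SRepo at day 5 was high for Ald1 at 3140 CPM, Lsp1beta at 353 CPM and BomBc1 at 295 CPM. It was the only library of its group with reads of v (1.13 CPM), NimC1 (0.708 CPM) and CG34138 (0.425 CPM), and the deepest of the group at 7.06 M gene reads. In the same group, Ugt49B1 was low in replicate 4 at 25.6 CPM and CG43402 high in replicate 3 at 42.2 CPM.

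At day 15, single VAPP58SRepo libraries stood apart for Act57B at 306 CPM, Cnx99A at 246 CPM, ImpL2 at 173 CPM, CG1628 at 62.4 CPM, TotX at 29.4 CPM, Cyp6a2 at 5.7 CPM and CG7214 at 1.98 CPM, and Ilp7 was read in only 1, at 0.295 CPM. Single VAPP58S libraries of day 15 stood apart for mt:CoI at 12100 CPM, Pdp1 at 2220 CPM, RpS12 at 403 CPM and TotM at 221 CPM, and replicate 1 detected 10990 genes, the fewest of its group. MtnC at 0.558 CPM and Cyp6a2 at 0.306 CPM were each read in only 1 library of that group. Among VAPP58S libraries of day 5, CG32444 was low in replicate 1 at 50.3 CPM and MtnC was read only in replicate 2, at 0.243 CPM.

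The fold change of VAPP58SRepo over VAPP58S differed between ages, by edgeR's test of the difference, for 13 named genes. Day 15 minus day 5, it was 2.86 for Lsp1beta, 1.52 for CG1628, 1.41 for ImpL2, 1.23 for CG8036 and 1.18 for CG32444. It was -4.61 for TotC, -3.97 for CG7214, -3.23 for CG7203, -3.03 for CG43402, -2.23 for TotA, -1.62 for CG4000, -0.99 for Act57B and -0.76 for nrv2.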

How the results depend on the processing

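The count of genes that differed between VAPP58SRepo and VAPP58S, 848 as reported, was 850 with RLE scaling, 874 with no filter, 1155 with DESeq2, 671 with thinned counts and 872 without replicates 3 and 4 of VAPP58SRepo at day 5, an alternative chosen after seeing the data. It was 1436 with all 56 male libraries in 1 fit and 1290 with limma-voom and library weights, the second also chosen after seeing the data. At day 5 the count was 753 with DESeq2 and 845 with the 56 libraries, and at day 15 it was 781 with the 56 libraries and 1462 with limma-voom. The count of differences between ages was 68 with no filter, 140 with DESeq2, 127 with the 56 libraries and 163 with limma-voom. The cause was not tested. With each library left out in turn, the counts ran from 682 to 986 over both ages, from 71 to 81 for the 2-fold test, from 358 to 711 at day 5, from 306 to 691 at day 15, from 25 to 113 for the difference between ages and from 933 to 1345 for the kay arms against VAPWT. Replicate numbers did not pair the libraries: libraries with the same number had correlations of -0.0569 to 0.0833 in their deviations from group means, and a replicate block gave 738 genes, 726 of them among the 848. With the block the counts were 70 for the 2-fold test, 385 at day 5, 426 at day 15, 26 for the difference between ages and 1215 for the kay arms. No named gene reversed under any alternative run. Of 101 called named genes, 84 kept their call without any 1 library. With thinned counts PGRP-LF and Pxn lost their call, and with the 56 libraries the difference between ages of CG32444 did. Fitted log2 fold changes of genes near 0 in one set moved most: MtnC was 8.87 without replicate 2 of VAPP58S at day 5, Cyp6a2 9.25 without replicate 3 of VAPP58S at day 15, Cyp4p2 6.93 without replicate 2 of VAPP58S at day 15, and Ilp7 -8.70 without replicate 2 of VAPP58SRepo at day 15. Depth limits the low genes: in the shallowest of the 16 libraries 3 reads are 1.86 CPM.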
